A study of Rattus norvegicus with 6 samples.

Results

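The brush border peptidases described here are 7 enzymes of the proximal tubule surface: Mep1a, Mep1b, Mme, Anpep, Enpep, Dpp4 and Xpnpep2. They were taken as a named list of rat genes, and each was found on the array through the RefSeq transcript that its probe names. All 7 had a probe and all 7 were among the 11748 genes tested. Where a gene had several probes, the one with the highest mean signal over all 6 arrays was used. The probe of a gene was thus chosen by its mean log2 intensity, so levels are a description only. The list itself was put forward with results of this comparison in view, and its values are likewise given as a description, beside a fit over all genes.

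The 6 animals were male rats of the Sprague-Dawley stock Crl:CD(SD), bought at 5 weeks of age, whose renal cortex was profiled. For 4 weeks, 3 were given corn oil and 3 were given 750 mg/kg/day of 2-amino-4-nitrophenol, a hair dye ingredient with an amino and a nitro group on phenol. Each rat has 1 single-colour (Cy3) array, and the series calls the rats of a group biological replicates. The tissue is whole cortex, so fewer cells of a type and less RNA per cell cannot be told apart. Whether the treated rats also received corn oil is not stated in the labels.

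Brush border peptidases sit with their catalytic domains outside the cell, on the microvilli that line the proximal tubule. They cut peptides in the glomerular filtrate into amino acids and short peptides, which neighbouring transporters then take up, and they also inactivate or convert signalling peptides. Meprin subunits alpha (Mep1a) and beta (Mep1b) are astacin metalloendopeptidases that assemble as homo- and hetero-oligomers, in which the beta subunit holds alpha at the membrane. Neprilysin (Mme) cleaves natriuretic peptides, bradykinin and angiotensins. Aminopeptidases A (Enpep) and N (Anpep) remove acidic and neutral residues from the amino end and act in turn on angiotensin II and III. Dipeptidyl peptidase 4 (Dpp4) releases dipeptides that end in proline or alanine, as from incretins, and aminopeptidase P2 (Xpnpep2) removes a residue that stands before proline, as in bradykinin.

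Sequence upstream of the annotated start is shown for 4 of the genes, because both meprin genes and Mme contrast in their values and Anpep has a match of its own. These are the 250 bases before the start in the RefSeq promoter table (build GRCr8), 5′ to 3′ on the strand of the gene, with capitals on each match to GTTAAT, one arm of the palindromic site of HNF1, a factor of kidney and intestinal epithelium, read on both strands. Their positions are chr18:12640791-12641040 (plus strand) for Mep1b, chr9:24971651-24971900 (plus) for Mep1a, chr2:149872247-149872496 (plus) for Mme and chr1:143195102-143195351 (minus) for Anpep.
Mep1b: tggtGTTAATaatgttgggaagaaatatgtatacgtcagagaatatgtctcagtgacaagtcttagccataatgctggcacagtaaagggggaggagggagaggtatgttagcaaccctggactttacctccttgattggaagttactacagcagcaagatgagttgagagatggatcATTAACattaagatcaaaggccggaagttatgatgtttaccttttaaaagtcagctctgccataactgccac
Mep1a: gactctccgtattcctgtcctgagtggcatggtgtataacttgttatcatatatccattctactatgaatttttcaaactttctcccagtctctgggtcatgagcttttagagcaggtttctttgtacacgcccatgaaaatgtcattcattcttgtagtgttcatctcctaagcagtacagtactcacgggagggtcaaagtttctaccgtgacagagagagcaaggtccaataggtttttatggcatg
Mme: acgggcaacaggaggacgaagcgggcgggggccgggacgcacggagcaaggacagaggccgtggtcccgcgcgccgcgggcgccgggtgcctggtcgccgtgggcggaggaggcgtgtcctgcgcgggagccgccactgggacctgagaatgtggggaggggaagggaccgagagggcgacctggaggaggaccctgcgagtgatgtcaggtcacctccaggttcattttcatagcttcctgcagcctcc
Anpep: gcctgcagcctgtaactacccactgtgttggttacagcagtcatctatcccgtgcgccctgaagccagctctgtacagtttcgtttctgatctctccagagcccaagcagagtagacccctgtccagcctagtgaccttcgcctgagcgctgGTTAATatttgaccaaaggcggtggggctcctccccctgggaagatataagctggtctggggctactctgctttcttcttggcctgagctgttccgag

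The GTTAAT arm was in 2 of the 7 upstream windows. Mep1b held 2 matches, from 246 to 241 bases before the start on the strand of the gene and from 72 to 67 bases before it on the opposite strand. Anpep held 1 match, from 98 to 93 bases before the start. Of the 33469 windows of 250 bases in the promoter table, 6.45% hold this arm. The window of Mme is rich in G and C, at 70.4% of bases, against 41.6% for Mep1b and 42.0% for Mep1a. The core of the antioxidant response element bound by NRF2, TGACNNNGC, was searched on both strands and had no match in any of the 7 windows, and 10.1% of all windows hold it. TATAAA had no match in the 7 (12.9% of all windows), and CCAAT was in 3 of the 7, those of Mep1a, Mep1b and Dpp4 (34% of all windows). Of these motifs, no match in 1 window overlapped another. A match is a run of letters in this window and was not tested as a site.

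Values below are log2 intensities relative to the 75th percentile of the array, called log2 values. A change is the treated mean minus the corn oil mean of those values, with its standard error (SE) from limma. Over all genes tested the median change was 0.04, and 3 genes, 0.0255% of those tested, passed an adjusted p of 0.05 in limma. These were 2 genes that rose (0.017%) and 1 that fell (0.00851%), and 0 of the 7 peptidases were among them. An unadjusted p under 0.05 was found for 3 of the 7 (Mep1b and Mme higher, Xpnpep2 lower), against 21.6% of all genes (14.3% higher, 7.29% lower). For the same 3 peptidases the groups did not overlap, with the treated arrays all above every corn oil array for 2 and all below for 1. This held for 30.2% of all genes (20.1% higher, 10.1% lower). All 7 probes were well above background on all 6 arrays, and none was saturated. The median change of the 7 was 0.05, close to that of all genes, and single members ranged from -0.35 to 1.92.

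**Figure D1:**
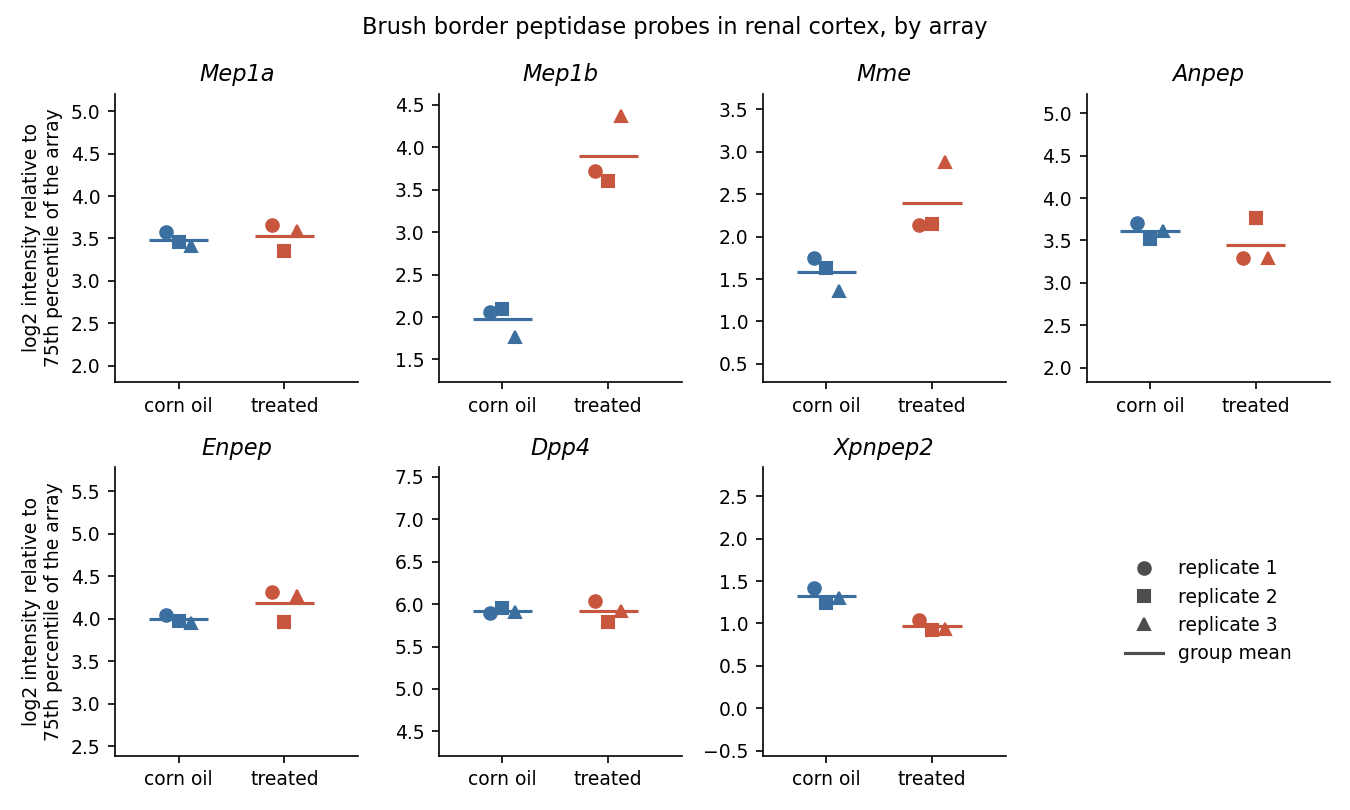
Each panel plots 1 peptidase gene, with the log2 intensity relative to the 75th percentile of the array on the vertical axis, corn oil arrays in blue and treated arrays in red. Symbols mark replicates 1 to 3, bars mark group means, and every panel spans the same number of log2 units around its own centre. The treated arrays of Mep1b and Mme lie above all corn oil arrays, those of Xpnpep2 lie below, and the groups overlap for the other 4 genes.

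Mep1b, which encodes meprin beta on chromosome 18, had the largest change of the list. Its processed intensity was 3545, 3182 and 2692 on corn oil replicates 1, 2 and 3 and 8997, 6836 and 12915 on treated replicates 1, 2 and 3. On the log2 scale these are 2.06, 2.10 and 1.76 against 3.72, 3.60 and 4.37. Every treated array lay above every corn oil array, and treated replicate 3 was the highest of all. The change was 1.92 ± 0.22 (SE, n = 3 per group), or 3.79-fold with a 95% interval of 2.62 to 5.49 (limma, adjusted p = 0.0799). By size it was 24th from the top of the 11748 genes tested, and by p it was 12th. The adjusted p over 17 alternatives ran from 0.0352 to 0.312 and passed the threshold in 3 of them: normexp background correction (0.0477), trend and robust moderation (0.0352) and the fit without treated replicate 2 (0.0465). The change was at least 1.60 in each of those 17 settings, the lowest being spike-in scaling. Other filters, a replicate block and trend and robust moderation reuse the same array values, so they gave 1.92 again.

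The second probe of Mep1b gave nearly the same picture. Its log2 values were -0.23, -0.15 and -0.54 on the corn oil arrays and 1.41, 1.28 and 2.01 on the treated arrays, a change of 1.87. The treated arrays kept the same order on both probes, with replicate 3 highest and replicate 2 lowest. Both probes name the same RefSeq transcript.

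Mep1a, which encodes meprin alpha on chromosome 9, had a change of 0.05 ± 0.11 and did not pass (limma, adjusted p = 0.805). Its log2 values were 3.58, 3.45 and 3.42 on the corn oil arrays and 3.66, 3.35 and 3.59 on the treated arrays. Treated replicate 2 was the lowest of the 6 and treated replicate 1 the highest, so the groups overlapped. The 95% interval of the fold was 0.864 to 1.24, and the other probe gave a change of 0.12. The sign turned after quantile normalization (-0.09), after spike-in scaling (-0.27) and without treated replicate 1 (-0.0098).

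The 2 meprin subunit genes can be set against each other within each array, which removes the scaling of the array. Relative to the corn oil mean, the log2 difference of Mep1b minus Mep1a was -0.010, 0.15 and -0.14 on the corn oil arrays and 1.57, 1.76 and 2.28 on the treated arrays. The ratio of Mep1b to Mep1a was thus 3.66 times as high in treated cortex, with an SD of 0.15 log2 units among corn oil arrays and 0.37 among treated arrays. This pair was picked after its values were seen, so no test is given. Cross-hybridisation between these paralogs was not assessed, since probe sequences were not used here.

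**Figure D2:**
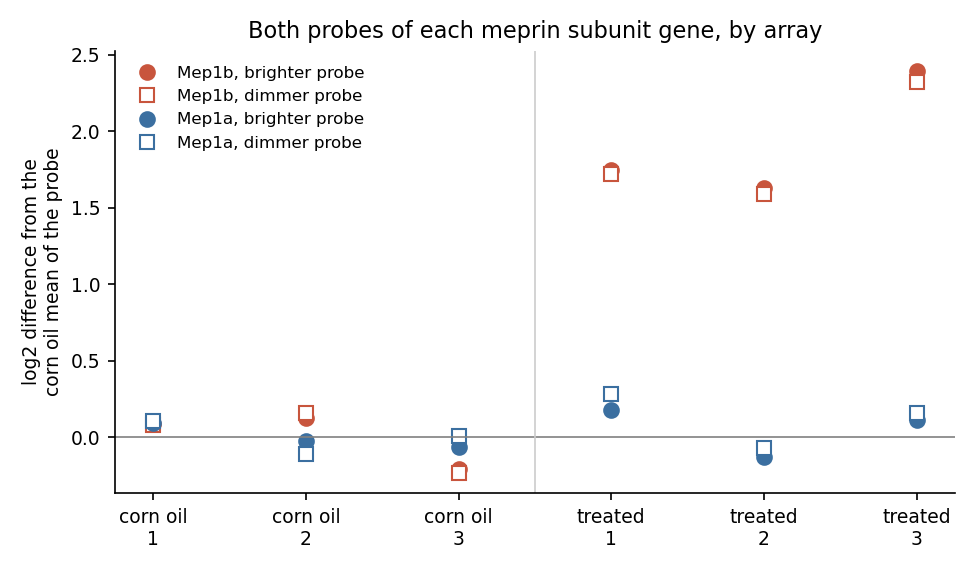
The log2 difference from the corn oil mean of each probe is plotted for the brighter (filled) and dimmer (open) probes of Mep1b (red) and Mep1a (blue), by array. Both Mep1b probes lie between 1.59 and 2.39 on the treated arrays, whereas both Mep1a probes lie between -0.13 and 0.28 there.

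Mme, which encodes neprilysin on chromosome 2, was the other peptidase whose treated arrays all lay higher. Its log2 values were 1.75, 1.63 and 1.36 on the corn oil arrays and 2.14, 2.15 and 2.88 on the treated arrays. The change was 0.81 ± 0.23, or 1.75-fold with a 95% interval of 1.19 to 2.58 (limma, adjusted p = 0.149). The gap between the groups was smaller than the distance of treated replicate 3 from the other treated arrays. Without that array the change was 0.57, and after spike-in scaling it was 0.49 and the groups overlapped. Mme has a single probe here.

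Mep1b and Mme shared their extremes over the 6 arrays: corn oil replicate 3 was the lowest and treated replicate 3 the highest for both. Within arrays the log2 difference of Mep1b minus Mme, relative to its corn oil mean, was -0.089, 0.076 and 0.014 on corn oil arrays and 1.18, 1.06 and 1.09 on treated arrays. The treated rats thus differed little in this ratio (SD 0.066), although each gene alone had an SD of 0.41 (Mep1b) and 0.43 (Mme) among them.

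Anpep and Enpep encode aminopeptidases N and A. For Anpep, on chromosome 1, the log2 values were 3.70, 3.52 and 3.61 on the corn oil arrays and 3.30, 3.76 and 3.29 on the treated arrays. Treated replicate 2 was thus the highest of the 6, while treated replicates 1 and 3 lay below all corn oil arrays. The change was -0.16 ± 0.15, a fold of 0.894 with a 95% interval of 0.696 to 1.15 (limma, adjusted p = 0.552), and it was -0.32 without treated replicate 2. After spike-in scaling it was -0.48, and the treated arrays all lay below the corn oil arrays.

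Enpep, on chromosome 2, had the opposite arrangement. Its log2 values were 4.05, 3.98 and 3.95 on the corn oil arrays and 4.32, 3.96 and 4.27 on the treated arrays, with treated replicate 2 among the corn oil values. The change was 0.19 ± 0.12, or 1.14-fold with a 95% interval of 0.940 to 1.39 (limma, adjusted p = 0.368). Spike-in scaling gave -0.13, the fit without treated replicate 2 gave 0.30, and the dimmer probe gave 0.03.

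Dpp4, on chromosome 3, had nearly equal group means. Its log2 values were 5.89, 5.95 and 5.90 on the corn oil arrays and 6.03, 5.79 and 5.92 on the treated arrays, so that the corn oil values fell inside the treated range. The change was 0.00014 ± 0.090 and the 95% interval of the fold was 0.860 to 1.16 (limma, adjusted p = 0.999). Its other probes gave -0.09 and -0.25, and on the dimmest of the 3 every treated array lay below every corn oil array. The sign of a change this close to 0 turned in 8 of 17 alternatives.

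Xpnpep2, on the X chromosome, was the peptidase with the lowest change. Its log2 values were 1.41, 1.24 and 1.30 on the corn oil arrays and 1.04, 0.93 and 0.94 on the treated arrays. All treated arrays lay below all corn oil arrays, and this held in each of 17 alternatives. Only those that rescale the arrays or correct background anew could have come out otherwise, since the rest reuse the same values. The change was -0.35 ± 0.08, a fold of 0.785 with a 95% interval of 0.681 to 0.905 (limma, adjusted p = 0.130). After spike-in scaling it was -0.67. Xpnpep2 has a single probe here.

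**Figure D3:**
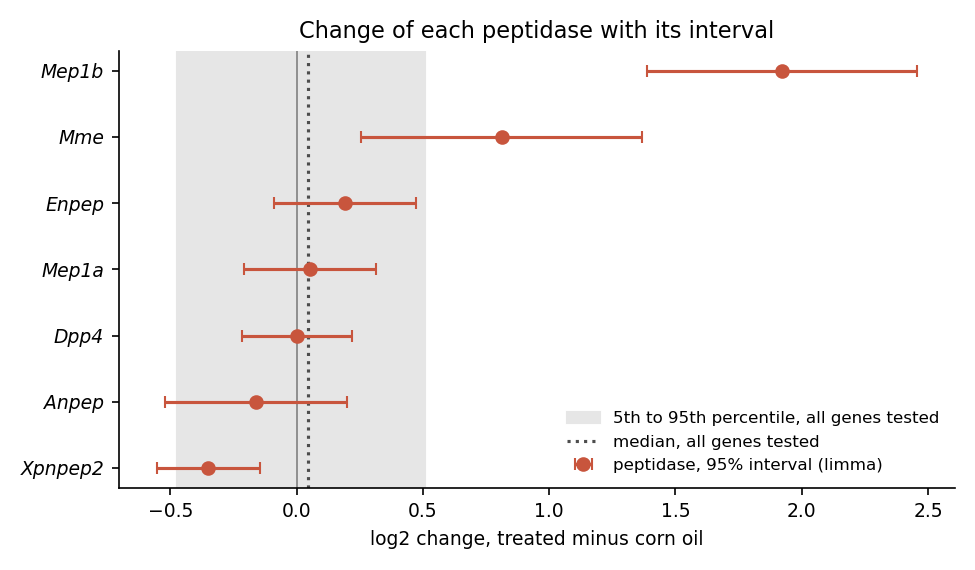
The log2 change of each peptidase (treated minus corn oil) is plotted as a point with its 95% interval from limma, over the range from the 5th to the 95th percentile of all genes tested (grey, -0.48 to 0.51). The intervals of Mep1b and Mme lie above 0 and that of Xpnpep2 lies below 0, and those of the other 4 genes include 0.

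Spike-in scaling sets the values of an array relative to its spike-in probes and not to its genes. It lowered the median change of all genes by 0.32 on the log2 scale, to -0.28. The changes of the peptidases moved down with it, from 0.05 to -0.27 for Mep1a and from 0.19 to -0.13 for Enpep. Mep1b, Mme, Anpep and Xpnpep2 kept their signs under every scaling tried, while Enpep turned under spike-in scaling, and Mep1a and Dpp4 under quantile normalization and spike-in scaling (Dpp4 also under normexp).

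**Figure D4:**
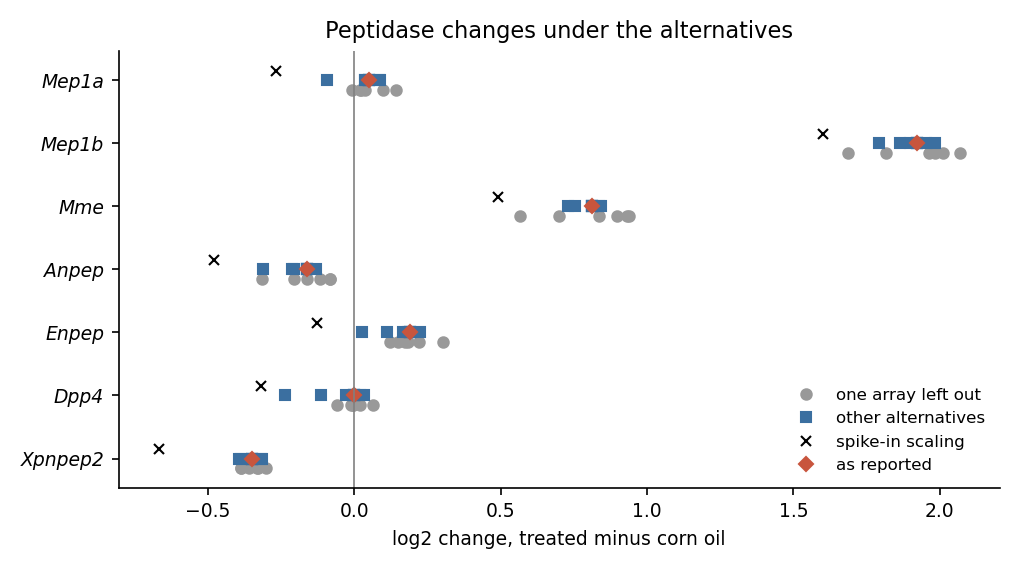
For each peptidase the log2 change (treated minus corn oil) is plotted as reported (red diamond), with 1 array left out (grey), under spike-in scaling (cross) and under the other alternatives (blue). Mep1b stays between 1.60 and 2.07, while Mep1a and Dpp4 lie on both sides of 0 and Enpep is below 0 under spike-in scaling alone.

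Other hydrolases of the tubular brush border lay on both sides of 0. All 11 of the list were measured, 0 passed in limma over all genes tested (3 at an unadjusted p under 0.05 were higher and 2 lower), and the median change was 0.04. Enpp3, an ectonucleotide pyrophosphatase, had 0.56 ± 0.16. Folh1, a glutamate carboxypeptidase, had -0.48 ± 0.13 (-0.48 from its other probe), and Treh, the trehalose-splitting enzyme, had -0.60 ± 0.15. Treh was dim, was not well above background on every array, and its sign turned after normexp correction (0.07). For 5 of these 11 genes, 3 higher and 2 lower, the groups did not overlap, against 30.2% of all genes (20.1% higher, 10.1% lower).

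Changes of the microvillus scaffold ranged from -0.37 to 0.08. Of 13 listed proteins 10 were measured, with a median change of -0.03, and 0 passed (1 at an unadjusted p under 0.05, lower). That gene was Vil1, the actin bundling protein villin, at -0.37 ± 0.12, and its treated arrays (1.30, 1.67 and 1.39) all lay below its corn oil arrays (1.80, 1.76 and 1.91). Myo7b, an unconventional myosin of the microvillus tip, had -0.18 ± 0.25, and the scaffold Nherf2 had -0.09 ± 0.10. The sign of Myo7b turned after normexp correction (0.21) and without treated replicate 2 (0.10).

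The transporters that take up the products of these peptidases had a median change of 0.08 over 9 measured of 11 listed. Of these 0 passed, and 2 had an unadjusted p under 0.05, both higher. Slc3a1, the heavy subunit of the cystine and dibasic amino acid transporter, had 0.42 ± 0.10 (0.26 from its other probe, 0.069 after quantile normalization), while its light subunit Slc7a9 had -0.06 ± 0.14. The peptide transporter Slc15a2 had 0.37 ± 0.29, with treated values of -0.31, -1.30 and -0.25 on either side of the corn oil values, and its change ran from 0.19 to 0.71 with 1 treated array left out. The glutamate transporter Slc1a1 had -0.08 ± 0.19. The sign turned without 1 array for Slc7a9 (0.05, treated replicate 1) and for Slc1a1 (0.08, corn oil replicate 1, and 0.03, treated replicate 2).

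Relatives of the 7 were listed by peptidase family or by name, and most of them are cytosolic, endosomal or of other tissues. Their median change was -0.02 over 18 measured of 30 listed. Of these 0 passed. At an unadjusted p under 0.05 were 1 higher and 1 lower gene. Astl, an astacin like the meprins, had -1.12 ± 0.36, with corn oil values of -2.54, -2.52 and -2.57 and treated values of -4.49, -2.99 and -3.52. The sign of this change was opposite to that of Mep1b, and its size was -0.71 without treated replicate 1 and -0.49 after normexp correction. The Astl probe was dim, with intensities of 130 to 146 on corn oil arrays and 30.5 to 71.1 on treated arrays. The other Astl probes were not kept and gave 1.89 and 0.26. The 1.89 rested on treated replicate 3, at an intensity of 201 against 3.23 and 3.91 on treated replicates 1 and 2. Prep, the cytosolic prolyl endopeptidase, had 0.43 ± 0.13, and Dpp7, a lysosomal dipeptidyl peptidase, had -0.28 ± 0.21 (from -0.51 to -0.16 with 1 treated array left out).

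Among 14 measured of 18 listed peptide substrates and receptors the median was 0.02, and 0 passed. An unadjusted p under 0.05 was found for 1 higher and 2 lower genes. Agt, the angiotensinogen precursor of peptides that Enpep and Anpep trim, had 0.97 ± 0.48 (1.08 from its other probe). Its treated values were -0.12, 0.35 and 1.64, again highest in treated replicate 3, and the change was 0.46 without that array. Kng1, a kininogen, had 0.53 ± 0.43 and the neuropeptide Y receptor gene Npy1r, which was dim, had -0.90 ± 0.24. Without corn oil replicate 3 the change of Kng1 was 0.042 (0.88 without corn oil replicate 1), and after normexp correction that of Npy1r was -0.017. Transcription factors of proximal tubule identity had a median of -0.14 over 8 measured of 10, with 0 passing and 1 lower at an unadjusted p under 0.05. Lhx1 had -0.39 ± 0.14 (-0.45 from its other probe), Maf -0.38 ± 0.35 and Ppara -0.22 ± 0.51. Without corn oil replicate 2, as with the slide block, Maf had -0.049 and Lhx1 -0.24, and Maf had -0.69 without corn oil replicate 1 and -0.22 without treated replicate 1. The sign for Ppara turned without corn oil replicate 1 (0.0099), treated replicate 2 (0.00066) or treated replicate 3 (0.08).

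**Figure D5:**
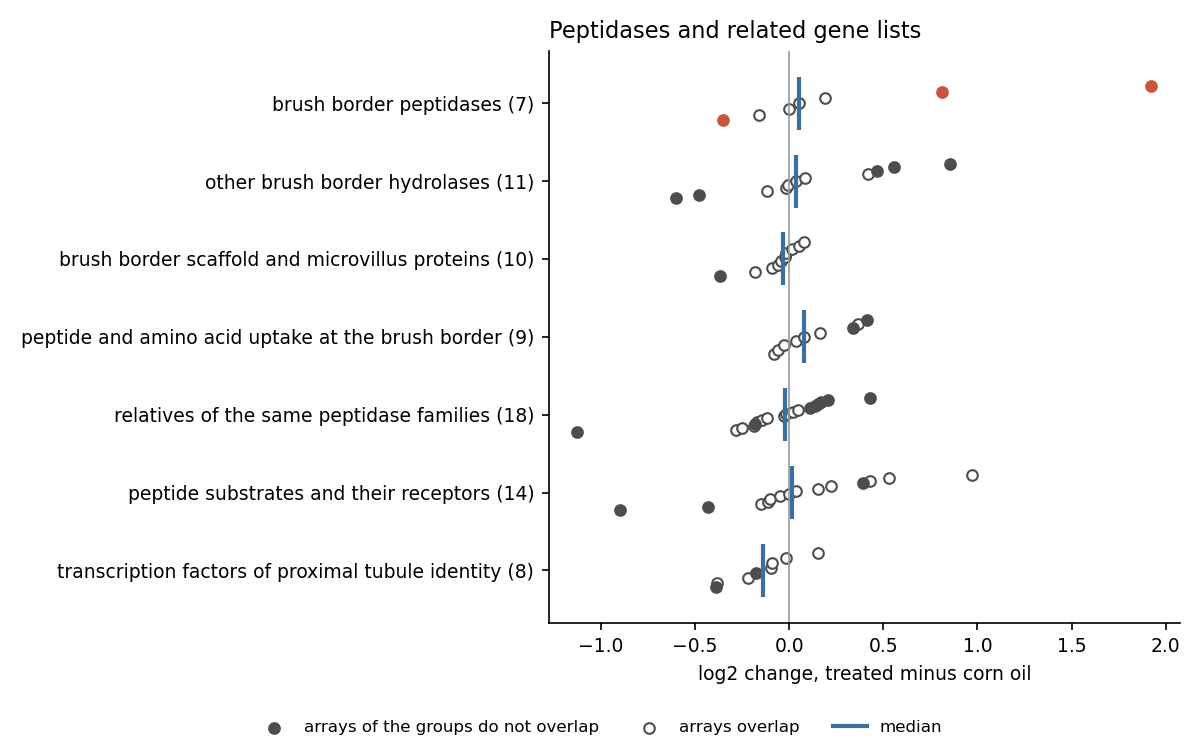
Each point is the log2 change (treated minus corn oil) of 1 measured gene of the peptidases or of a related list, with the number measured in brackets and the list median as a blue bar. Filled points are genes whose treated and corn oil arrays do not overlap, which holds for 30.2% of all genes tested. List medians lie between -0.14 and 0.08, and Mep1b at 1.92 is the point farthest from 0.

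Markers of nephron segments and other cells were read beside these values. All 12 markers of the early and middle proximal tubule were well above background on all 6 arrays. Their summed linear level was 1897 to 2023 times the 75th percentile on corn oil arrays and 2048 to 2223 on treated arrays. Of 6 markers of the straight proximal segment (S3), 3 were higher and 3 lower, and the summed level was 71.5 to 91.7 against 75.5 to 97.2. Slc5a1 had a change of 0.33, Slc22a13 of -0.019, Cyp2e1 of -0.19 and Acsm3 of -0.50, and the groups overlapped for these 4. The other two were singled out after their values were seen. Slc22a7, an organic anion transporter, had -3.03, -3.39 and -3.77 on corn oil arrays and -1.18, -1.26 and -0.58 on treated arrays. Slc7a13, an amino acid transporter, had 3.55, 3.86 and 3.14 against 4.48, 4.50 and 5.22. For both, corn oil replicate 3 was the lowest and treated replicate 3 the highest array, as for Mep1b and Mme. Their part in the result was not tested.

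Other cells that can carry some of these peptidases were read likewise. Podocyte markers, of which 6 of 6 were measured, summed to 38.4 to 43.5 on corn oil arrays and 34.8 to 41.9 on treated arrays. Fibroblast and pericyte markers (6 of 6) summed to 23.3 to 25.2 against 19.8 to 34.6, macrophage markers (4 of 6) to 29.9 to 37.5 against 29.4 to 42.3, and endothelial markers (5 of 6) to 33.8 to 35.7 against 33.8 to 34.3. T cell markers (6 of 6) summed to 1.23 to 2.39 against 1.21 to 1.42. Neutrophil markers (3 of 5) summed to 0.464 to 0.642 against 0.784 to 1.82, with Elane not well above background on any array. B cell markers (2 of 5) summed to 0.0825 to 0.0933 against 0.106 to 0.139. Neutrophil and B cell markers were thus higher on all treated arrays, and their part in the peptidase values was not tested. Thick ascending limb markers (4 of 5) summed to 269 to 295 against 352 to 452, and distal convoluted tubule markers (4 of 6) to 50.8 to 58.2 against 39.4 to 48.1. Umod, at 263 to 287 against 346 to 443 on the same linear scale, made up nearly all of the thick ascending limb sum. Its log2 change was 0.45, while Kcnj1 had -0.16, Cldn16 0.35 and Cldn10 0.43, and the groups overlapped for these 3.

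The 5 genes whose pattern over the 6 arrays was most like the mean centred log2 value of the 7 peptidases were taken from 11059 genes well above background on all arrays. That mean was -0.095, -0.18 and -0.26 on the corn oil arrays and 0.16, 0.063 and 0.31 on the treated arrays, and Mep1b, with the widest range, weighs most in it. Niban2 had the highest Pearson r (0.995), with a change of 0.16. Gclc, which makes the first intermediate of glutathione, followed (0.991, change 1.63), then Cidec, a lipid droplet protein (0.989, change 1.48), Abcc8, the sulfonylurea receptor (0.988, change 1.90), and Purb, a nucleic acid binding protein (0.987, change 0.36). With 6 arrays in 2 groups and so many genes searched, these values are a description and carry no test.

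Unscaled signal was lower on treated arrays, with a 75th percentile of 564 to 685 against 743 to 852 on corn oil arrays. Corn oil replicate 2 alone lay on a second slide, in row 2. On the first slide corn oil replicates 1 and 3 lay in row 1 and all treated arrays in row 2. Group and row thus cannot be told apart on that slide. A slide block gave changes of 1.98 for Mep1b, 0.84 for Mme and -0.39 for Xpnpep2. These equal the fit without corn oil replicate 2, so the block is no separate check of array position. Precision is limited by the 3 arrays of each group.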

How the data were processed

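Per the file headers, the deposited intensity of each spot comes from Agilent Feature Extraction 10.7.1.1 (10.7 in the submitters' processing notes), which subtracted background and detrended it. Flags other than intensity, as deposited, mark outliers, saturation and signal well above background. The authors' deposited value table holds a ratio, each intensity over the 75th percentile of its array (column medians 0.106, 0.105 and 0.106 for corn oil and 0.103, 0.103 and 0.105 for treated). Compared with the scanner files, every column matched a different replicate number within the same group (log2 differences with an SD of 0.00033 to 0.00035), so replicate numbers follow the scanner files. Its scale and centring were settled by that comparison.

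Log2 intensity minus the 75th percentile over 61657 non-control probes was analysed. Of these, 64 outliers were left out, 40894 were kept because 1 or both groups had them well above background on 3 arrays, and 27460 were named through RefSeq (GRCr8). Each gene was represented by its brightest kept probe. Groups were compared with limma 3.58.1 (R 4.3.3), no block and Benjamini-Hochberg adjustment over 11748 genes. The model was tested on simulated data with large changes added to genes of low spread, which does not show its power for smaller changes. The members and gene lists were chosen with earlier results of these data known. Named genes are the 7 members, the 2 highest and 2 lowest changes of the hydrolase and transporter lists, the 3 largest absolute changes of the other function lists, and the 5 genes most like the members. Marker genes and other pairs were named after their values were seen. A gene that this rule takes is not reported here.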

Additional observations from a re-analysis of the deposited data

How the results depend on the processing

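The number of genes that passed over all genes, 3 here, was 56 with normexp correction, 9 with spike-in scaling, 69 with trend and robust moderation, and 0 with no filter, with the mean over probes, with the replicate block or with the slide as a block, where 3496, 2443, 2121 and 1764 genes had an unadjusted p under 0.05 in limma. It ran from 0 to 70 with 1 array left out (2 to 70 without a treated array, 0 without any 1 corn oil array). Of the peptidases, 1 (Mep1b) passed as higher with normexp correction, with trend and robust moderation and without treated replicate 2, so that this count ran from 0 to 1 with 1 array left out; 0 passed as lower in any setting. The median change of the 7, 0.05 here, was -0.092 after quantile normalization, -0.27 after spike-in scaling and from -0.0098 to 0.14 with 1 array left out. The number of peptidases whose arrays do not overlap, 3 here, ran from 3 to 6, the 6 being without treated replicate 2, where the groups did not overlap for 40.5% of all genes, against 30.2% with all arrays. After spike-in scaling the 3 included Anpep, as lower, in place of Mme, and 26.8% of all genes did not overlap.

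Signs turned for Mep1a (-0.092 after quantile normalization, -0.27 after spike-in scaling, from -0.0098 to 0.14 with 1 array left out), Dpp4 (-0.030 after normexp, -0.24 after quantile normalization, -0.32 after spike-in scaling, -0.12 as the mean over probes, from -0.058 to 0.063 with 1 array left out), Enpep (-0.13 after spike-in scaling), Treh (0.067 after normexp) and Myo7b (0.21 after normexp). With 1 array left out they also turned for Myo7b (-0.41 to 0.10), Slc1a1 (-0.24 to 0.083), Slc7a9 (-0.20 to 0.049) and Ppara (-0.73 to 0.085). The causes were not tested.

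Same-numbered rats were not paired by the labels, and their deviations from the group means correlated at 0.0065, -0.050 and -0.032, so the replicate number was not taken as a pairing. With the replicate block the adjusted p of Mep1b was 0.224 and no peptidase passed. Signal over background limited no member, since all were well above it.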
